A study of Mus musculus with 4 samples.

Results

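Cycling leukocytes are the kidney's immune cells caught while copying their DNA or dividing. They were selected here by counts of unique molecular identifiers (UMIs), each UMI standing for 1 captured RNA molecule. A cell was taken when it had 200 or more genes, 3 or more UMIs of Mki67 plus Top2a, 1 or more UMIs of Ptprc, and Slc34a1 at under 0.15% of its UMIs. Mki67 encodes a protein of dividing nuclei, Top2a the topoisomerase that untangles replicated chromosomes, Ptprc the leukocyte surface protein CD45, and Slc34a1 a phosphate transporter of the proximal tubule. This rule picked 335 of 15777 cells with 200 or more genes, or 2.12%. There were 62 in the panobinostat library, 120 in the givinostat library, 79 in the ruxolitinib library and 74 in the vehicle library. The remaining 5693 cells with Ptprc and the same Slc34a1 limit are called other leukocytes below.

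The cells came from whole kidneys of male C57Bl/6 mice of 9 weeks, genotype Pax2.rtTA;TetO.Cre;R26.Confetti, in which an inducible Cre under Pax2 control switches on a multicolour reporter. Every animal, vehicle included, had been given an anti-GBM serum, whose antibodies bind the glomerular filter and set off an immune nephritis. Treatment began on day 1 and all animals were sacrificed on day 7. The dose was 15 mg/kg for panobinostat, 10 mg/kg for givinostat and 60 mg/kg for ruxolitinib, and the vehicle was distilled water. Panobinostat and givinostat inhibit histone deacetylases, and ruxolitinib inhibits the Janus kinases JAK1 and JAK2, through which many cytokine receptors signal. There was 1 library per group from 2 animals per group, and the labels do not say whether both animals were pooled. No difference between libraries therefore has a replicate check, no test was made, and all intervals (95%, exact) and limits of a count of 0 cover counting error only. Each drug is set against the same vehicle library.

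A cell enters the cycle when growth signals release E2F transcription factors, which switch on the genes of DNA synthesis (S phase). Later a second set of genes, for chromosome condensation, the spindle and division (G2 and M phase), is switched on through MuvB complexes. Lymphocytes divide after their antigen receptors are engaged, while macrophages and conventional dendritic cells can also renew themselves within tissue. Neutrophils and monocytes are largely made by division in the bone marrow, and plasma cells arise from dividing precursors.

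The selecting genes had a wide range among the chosen cells. Mki67 plus Top2a counted 3 UMIs in the lowest cell, 9 in the median cell and 105 in the highest. Ptprc ran from 1 to 61 UMIs with a median of 10, and 21 cells had a single Ptprc UMI. Just inside the limit lay 71 cells with 3 UMIs of Mki67 plus Top2a, and just outside it 169 leukocytes with 2. Another 35 cells met every condition except Ptprc, and 16 except the Slc34a1 limit. These values made the choice and are given as a description.

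Depth differed between cells and libraries. The median cycling leukocyte had 12741 UMIs and the median other leukocyte 6467. By library the cycling cells' median was 10377 UMIs (panobinostat), 13778 (givinostat), 12797 (ruxolitinib) and 11660 (vehicle). The lowest cell of each library had 2920 (panobinostat), 5272 (givinostat), 3817 (ruxolitinib) and 3723 UMIs (vehicle), and givinostat was the deepest. Since the rule asks for a fixed number of UMIs, shares are also given with every cell thinned to the same number of UMIs. The libraries also split in pairs by Tpm3-rs7, at 16.1 CPM (UMIs of a gene scaled to a common library total) in cycling cells of panobinostat, 124 in givinostat, 160 in ruxolitinib and 19.2 in vehicle. Of 20 cell barcodes found in more than 1 library, 0 belonged to a cycling leukocyte.

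Cycling leukocytes made up 1.41% of panobinostat cells, 3.46% of givinostat cells, 1.99% of ruxolitinib cells and 1.88% of vehicle cells. Against vehicle the ratio was 0.749 (interval 0.526 to 1.06) for panobinostat, 1.84 (1.36 to 2.49) for givinostat and 1.05 (0.758 to 1.47) for ruxolitinib. The givinostat ratio was smaller over leukocytes alone and at equal depth. As a share of Ptprc cells the values were 5.0% (panobinostat), 6.82% (givinostat), 5.22% (ruxolitinib) and 4.87% (vehicle), and the givinostat ratio was 1.40 (1.04 to 1.90). Cells with at least 5272 UMIs were also thinned to that number before selection, which left out 3580 kept cells. In panobinostat, givinostat, ruxolitinib and vehicle 32, 63, 38 and 43 cells were then selected. Over all cells so thinned the givinostat ratio was 1.21 (0.807 to 1.82), and the interval includes 1. Over leukocytes at that depth the direction turned, with 63 of 1699 cells in givinostat and 43 of 759 in vehicle. That floor left out 693 leukocytes of vehicle and 0 of givinostat, and cycling cells were deeper than others, so these shares are not like for like. The part of the left-out cells in the turn was not tested. Thinned to 2920 UMIs, which left out no cell, 40 of 1612 leukocytes cycled in givinostat and 36 of 1326 in vehicle.

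Each cell was assigned to a kind from UMIs of marker genes, so the names below mean cells that resemble that kind by RNA. T cells were the most numerous, with 133 of the 335 cycling cells. Next came 56 dendritic cells with Cd209a, Mgl2, Clec10a or Flt3, and 22 dendritic cells with Xcr1 or Clec9a. There were 47 macrophages, recognised by the complement genes C1qa, C1qb and C1qc, 11 natural killer (NK) cells and 6 plasma cells. Classical monocytes supplied 5 cells, other monocytes 1 and neutrophils 1, and B cells and plasmacytoid dendritic cells supplied 0. A further 42 cells carried marker RNA of more than 1 class: 15 of T and myeloid cells, and 27 of tubule, endothelial, stromal or red cells. Another 11 had too few markers for a name. Mixed cells can be doublets or carry free RNA, and they were kept out of the named kinds.

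The next values are of genes that gave these names, so their presence in a kind describes the rule and supports nothing. Cd3e, a chain of the T-cell receptor complex, was counted in 127 of 133 cycling T cells at 407 CPM, against 415 CPM in other T cells, and in 0.86% of 2899 proximal tubule cells, which should lack it (median 9694 UMIs). The same gene was at 1.18 CPM in cycling Cd209a dendritic cells and at 0 in Xcr1 dendritic cells, macrophages and NK cells that cycle. These low values also follow from the rule, which first named cells with Cd3 UMIs as T cells or set them aside. In cycling macrophages C1qa stood at 3083 CPM, against 3445 CPM in other macrophages and 6.03 CPM in tubule cells. Xcr1, a chemokine receptor of dendritic cells that present antigen to CD8 T cells, was in 21 of 22 cycling cells named for it. Ncr1, an activating receptor of NK cells, was in 8 of 11 cycling NK cells. All 6 cycling plasma cells held Jchain, the joining chain of secreted antibodies, and Mzb1. Of genes outside the rules, Lat was in 127 of 133 cycling T cells and in 3 of 11 cycling NK cells. Batf3 was in 22 of 22 cycling Xcr1 dendritic cells and in 27 of 47 cycling macrophages.

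The cells were also clustered without the cell cycle genes. Of the 133 cycling T cells 126 fell in T clusters, as did 69 of 78 dendritic cells in dendritic clusters and 46 of 47 macrophages in macrophage clusters. The macrophage clusters were broader than the C1q rule, with 88 cycling cells among 1212, against 47 among 553. Dendritic clusters held 88 cycling cells among 664, and the plasmacytoid dendritic cluster 0 among 166. Neutrophil clusters held 7 cycling cells among 116, where the marker rule named 1 among 63.

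The share of each kind that cycled was 12.0% of Cd209a dendritic cells (56 of 468, interval 9.17% to 15.3%) and 17.1% of Xcr1 dendritic cells (22 of 129, 11% to 24.7%). It was 8.50% of macrophages (47 of 553, 6.31% to 11.1%), 5.23% of T cells (133 of 2542, 4.40% to 6.17%) and 3.26% of NK cells (11 of 337). Plasma cells were few, and 6 of 23 cycled, 2 of them with little cycle RNA beyond the selecting genes. At the other end stood classical monocytes with 5 of 496 cells (1.01%), other monocytes with 1 of 293, B cells with 0 of 158, which allows a share of up to 1.90% (3 counts of the total, a limit used here for every count of 0), and plasmacytoid dendritic cells with 0 of 164, which allows up to 1.83%.

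Thinned to 5272 UMIs, which left out 1860 leukocytes below that count, the order at the top changed, while the low kinds stayed low. Thinned to 2920 UMIs, which left out no cell, the dendritic share stayed slightly above that of macrophages, with values in the closing section. The part of the left-out cells in the changed order was not tested. Cells thinned to 5272 UMIs, with kinds called again on the thinned counts, gave 7.50% of both dendritic kinds together (36 of 480, 5.31% to 10.2%). The same depth gave 9.30% of macrophages (33 of 355, 6.49% to 12.8%) and 5.44% of T cells (79 of 1453, 4.33% to 6.73%). Among 435 classical monocytes, 206 other monocytes, 80 B cells and 142 plasmacytoid dendritic cells, 0 cycled. Cycling dendritic cells had a median of 17005 UMIs, against 8371 in macrophages and 10048 in T cells.

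**Figure D1:**
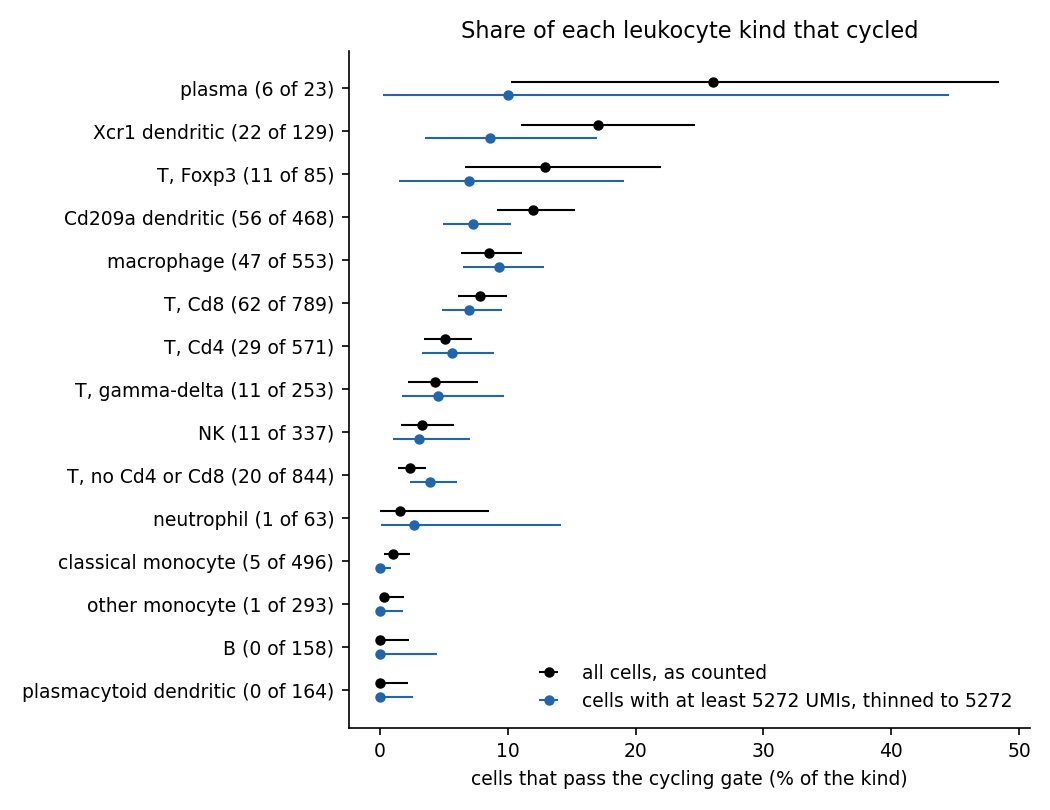
Percent of each leukocyte kind that passed the cycling gate, all 4 libraries pooled; points are shares and bars exact 95% binomial intervals, for all cells and for cells thinned to 5272 UMIs. Xcr1 and Cd209a dendritic cells drop from 17.1% and 12.0% as counted to 8.64% and 7.27% at 5272 UMIs. Cells below 5272 UMIs are left out there. Monocytes, B cells and plasmacytoid dendritic cells lie at or near 0 in both.

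Within T cells, cycling was spread over several subsets. Of the 133 cells, 62 had mainly Cd8a or Cd8b1, the coreceptor of cytotoxic T cells. Another 29 had Cd4, and 11 had Foxp3, the transcription factor of regulatory T cells. A further 11 had gamma-delta receptor genes. The remaining 20 had no Cd4 UMI and fewer than 2 UMIs of Cd8a and Cd8b1, and such a group can include cells whose coreceptor RNA was missed. The cycling share was 7.86% of Cd8 T cells (62 of 789, 6.08% to 9.96%) and 5.08% of Cd4 T cells (29 of 571, 3.43% to 7.21%). It was 12.9% of Foxp3 T cells (11 of 85, 6.64% to 22%) and 4.35% of gamma-delta T cells (11 of 253). The remaining T cells gave 2.37% (20 of 844, 1.45% to 3.64%). Thinned to 5272 UMIs, the Foxp3 share was 6.98% (3 of 43) and the Cd8 share 6.94% (34 of 490), so a higher share in Foxp3 cells was not detectable at that depth.

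By library, cycling T cells numbered 14 of 420 T cells in panobinostat, 59 of 797 in givinostat, 28 of 580 in ruxolitinib and 32 of 745 in vehicle. As counted that was 3.33% (panobinostat), 7.40% (givinostat), 4.83% (ruxolitinib) and 4.30% (vehicle). Thinned to 5272 UMIs it was 10.2% of 108 cells (panobinostat), 4.35% of 804 (givinostat), 3.75% of 293 (ruxolitinib) and 8.87% of 248 (vehicle). The direction of givinostat and of panobinostat against vehicle turned, so these shares set no order between the libraries. Thinning to 5272 UMIs removes the cells below that count, which are 683 leukocytes of panobinostat, 0 of givinostat, 484 of ruxolitinib and 693 of vehicle.

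Dendritic cells and macrophages cycled in every library. Cycling dendritic cells of both kinds numbered 19 of 126 in panobinostat, 19 of 141 in givinostat, 21 of 173 in ruxolitinib and 19 of 157 in vehicle. The ratio of these shares to vehicle was 1.25 (0.624 to 2.49) for panobinostat, 1.11 (0.558 to 2.22) for givinostat and 1.00 (0.513 to 1.97) for ruxolitinib. Macrophages gave 12 of 100 cells in panobinostat, 9 of 146 in givinostat, 13 of 168 in ruxolitinib and 13 of 139 in vehicle. All 3 of their intervals against vehicle include 1 as well, and the widest of them runs from 0.535 to 3.05 (panobinostat).

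Most cycling NK cells and gamma-delta T cells were in the givinostat library, with few in panobinostat and 0 in ruxolitinib and vehicle. NK cells gave 3 of 106 (panobinostat), 8 of 107 (givinostat), 0 of 66 (ruxolitinib) and 0 of 58 (vehicle), and 0 of 58 allows a share of up to 5.17%. Gamma-delta T cells gave 1 of 30 (panobinostat), 10 of 82 (givinostat), 0 of 48 (ruxolitinib) and 0 of 93 (vehicle), which allows up to 3.23%. Thinned to 5272 UMIs, 5 of 84 gamma-delta T cells cycled in givinostat and 0 of 21 in vehicle, and a difference was not detectable at these numbers.

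**Figure D2:**
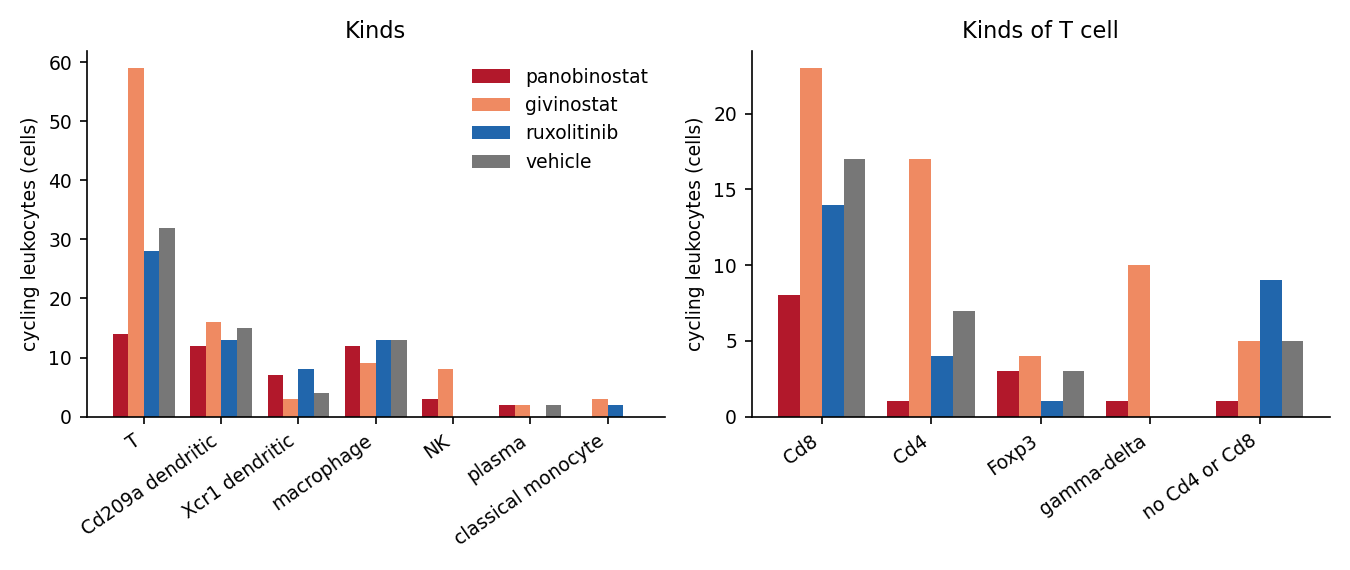
Number of cycling leukocytes of each kind in the panobinostat, givinostat, ruxolitinib and vehicle libraries. T cells number 14 (panobinostat), 59 (givinostat), 28 (ruxolitinib) and 32 (vehicle), while dendritic cells of both kinds together number 19 to 21 in every library.

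The genes that follow the cell cycle were read next, with Mki67 and Top2a left out because they made the choice. Other cycle genes move with these by biology, so the comparison of cycling with other leukocytes describes the chosen cells and is no test. S-phase genes took a median of 0.226% of the UMIs of a cycling cell and 0.071% of those of another leukocyte. G2 and M genes took 0.746% in cycling cells and 0.154% in others. More G2 and M than S-phase UMIs were found in 251 of 335 cycling cells (74.9%). That share was 85.7% of Cd209a dendritic cells (48 of 56), 78.7% of macrophages (37 of 47), 68.4% of T cells (91 of 133) and 36.4% of NK cells (4 of 11). Other leukocytes too had a higher median for G2 and M (52 genes) than for S phase (45 genes). An excess of G2 and M UMIs therefore does not by itself set the phase of a cell or of a kind. Both selecting genes peak late in the cycle, so cells in early S phase can be missed. Among other leukocytes 242 had an S-phase share at or above the cycling median, 158 of them T cells, but 4 had such a G2 and M share.

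A minority of the chosen cells had little other cycle RNA. In 71 of 335 both shares stayed below the 95th percentile of other leukocytes. Among them were 4 of the 5 classical monocytes, the 1 other monocyte and 2 of the 6 plasma cells, both in givinostat. The 5 classical monocytes had 0 UMIs of Top2a and entered through Mki67 alone. These 71 cells had a median of 3 UMIs of Mki67 plus Top2a, and the other 264 a median of 14. They numbered 7 in panobinostat (11.3% of its cycling cells), 34 in givinostat (28.3%), 19 in ruxolitinib (24.1%) and 11 in vehicle (14.9%). In givinostat 20 of them were T cells. Median G2 and M shares by library were 0.886% (panobinostat), 0.498% (givinostat), 0.759% (ruxolitinib) and 1.06% (vehicle), and in these medians the cells near the limit are included.

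**Figure D3:**
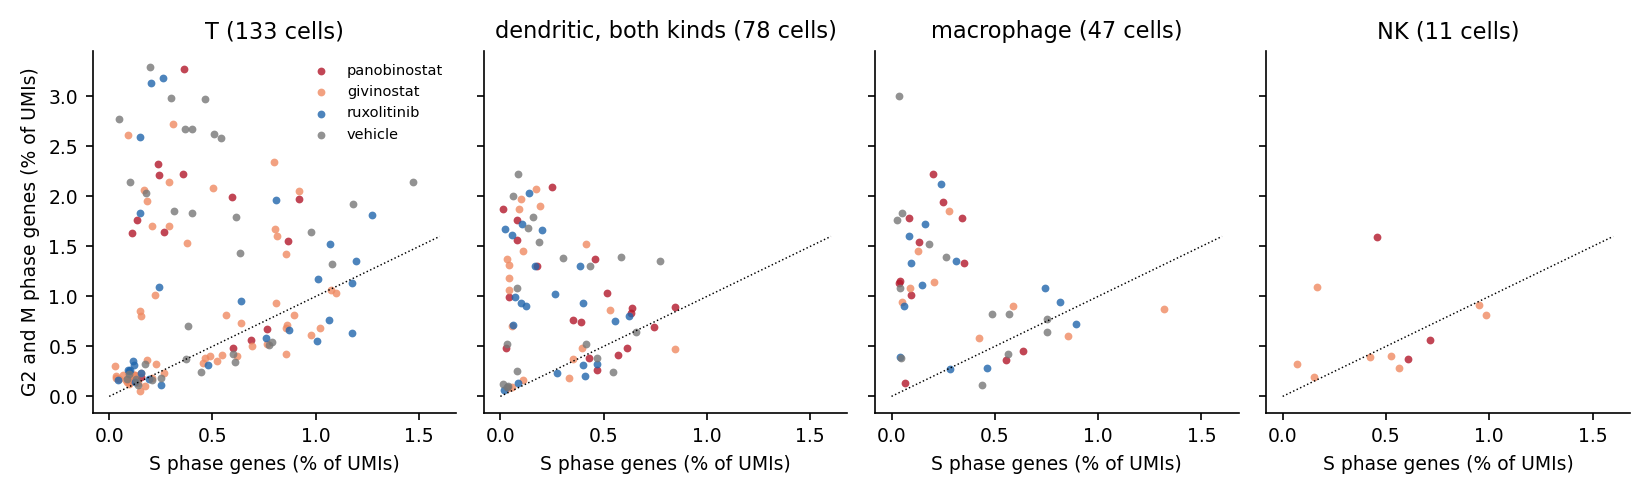
Each point is 1 cycling T cell, dendritic cell, macrophage or NK cell. The x axis is the percent of its UMIs from S-phase genes, the y axis from G2 and M genes without Mki67 and Top2a. The dotted line marks equal shares and is no boundary between phases. The 95th percentiles of other leukocytes, 0.212% (S phase) and 0.319% (G2 and M), are not drawn. Of all 335 cycling cells, including kinds not drawn, 243 lay above the G2 and M value and 71 below both.

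All cycle lists stood higher in cycling cells, in all 4 libraries. Across 1701 genes with at least 100 CPM in cycling or other leukocytes, 5.7% were 2-fold higher in cycling cells, 2.59% were 2-fold lower and 50.1% were higher at any size. Of the 52 G2 and M genes other than Mki67 and Top2a 26 passed that filter, and 23 of those were 2-fold higher, with a median log2 ratio of 3.16. Of 45 S-phase genes 13 passed and 12 were 2-fold higher (median 2.28), and of 16 measured replication histones 5 passed and 4 were 2-fold higher (median 4.63). Filtered genes entered mostly through the cycling cells, so the counts describe those listed and support nothing further. Each of these log2 ratios has a pseudocount of 5 CPM, which understates the change of low genes.

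Hmgb2, a chromatin protein of dividing cells, was the most abundant G2 and M gene, at 2205 CPM (panobinostat), 2404 (givinostat), 2194 (ruxolitinib) and 2728 CPM (vehicle) in cycling cells. Pooled it stood at 2385 CPM in cycling and 377 CPM in other leukocytes. Ube2c, which marks mitotic proteins for destruction, had 331 CPM in cycling cells against 5.82 CPM in others, and Birc5 (survivin), a subunit of the complex that steers chromosome segregation, 279.7 against 2.80 CPM. In S phase, Rrm2, a subunit of the ribonucleotide reductase that makes DNA building blocks, had 149 CPM against 2.76 CPM. Pcna, the sliding clamp of the DNA polymerases, had 177 CPM against 68.3 CPM. The linker histone Hist1h1b had 480 CPM against 6.12 CPM. Histone messages of this class mostly end without a poly(A) tail, so a poly(A)-primed assay counts them only in part.

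Among genes outside the lists, Pclaf and Stmn1 had the highest log2 ratios with the pseudocount of 5 CPM, at 5.67 and 4.71. Pclaf, a partner of Pcna, was counted at 411 CPM (panobinostat), 387 (givinostat), 449 (ruxolitinib) and 543 CPM (vehicle) in cycling cells, against 2.79 (panobinostat), 5.24 (givinostat), 4.07 (ruxolitinib) and 1.51 CPM (vehicle) in other leukocytes. Stmn1, which destabilises microtubules, stood at 775 (panobinostat), 670 (givinostat), 786 (ruxolitinib) and 914 CPM (vehicle) in cycling cells and at 21.1 to 31.1 CPM in others. The sums per library did not overlap for either gene, though single cells did. The tubulin gene Tuba1b was at 682 CPM in cycling and 105 CPM in other leukocytes.

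Genes that restrain the cycle were mostly lower. Of 15 measured inhibitors 7 passed the filter, 1 was 2-fold lower and 1, Cdkn2d, was higher in cycling cells (125 against 99.9 CPM), with a median log2 ratio of -0.39 against 0.00 over all genes. Btg1, an antiproliferative gene of resting lymphocytes, had 1280 CPM in cycling T cells and 2619 CPM in other T cells. Klf2, a factor of quiescent and recirculating T cells, had 630 CPM in cycling and 1279 CPM in other T cells. The cyclin-dependent kinase gene Cdk4, which drives exit from G1, had 110 CPM in cycling and 54.8 CPM in other leukocytes, whereas Ccnd2 had 133 and 180 CPM. MHC class II genes, which present antigen to Cd4 T cells, were higher in 7 of 7 (median 0.51) over all kinds, beside 50.1% of all genes. Within kinds, their member Cd74 was lower in cycling than in other macrophages (17640 against 20925 CPM) and Xcr1 dendritic cells (14317 against 16008 CPM). In T cells it was higher (377 against 220 CPM). Dendritic cells made up 78 of the 335 cycling cells, and 412 of the Cd209a kind plus 107 of the Xcr1 kind of the 5693 others, and the part of this mix in the MHC values was not tested.

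Promoters were compared for the short motifs known from these gene classes: TTTGAA, the core of the element bound by MuvB complexes, TTTCCCGC or TTTGGCGC for E2F, and CCAAT for NF-Y. Each was searched on both strands in RefSeq windows of 300 bases, 250 before to 50 after a gene's start (GRCm38.p6), and a gene counted when any of its windows held the motif. TTTGAA was in 33 of the 47 G2 and M genes with a window (70.2%), 6 of 33 S-phase genes (18.2%) and 5466 of all 27025 genes (20.2%). E2F letters showed the opposite split, in 4.26% of G2 and M genes (2 of 47), 36.4% of S-phase genes (12 of 33) and 1.80% of all genes. CCAAT was in 76.6% (36), 72.7% (24) and 41.1%. No motif is contained in another. A match describes the letters of these windows and does not show binding. Shown are the 3 most abundant G2 and M genes of the cycling cells, other than Mki67 and Top2a, whose window holds the motif, with TTTGAA or its reverse complement TTCAAA in capitals.
Hmgb2, chr8:57511593-57511892, plus strand: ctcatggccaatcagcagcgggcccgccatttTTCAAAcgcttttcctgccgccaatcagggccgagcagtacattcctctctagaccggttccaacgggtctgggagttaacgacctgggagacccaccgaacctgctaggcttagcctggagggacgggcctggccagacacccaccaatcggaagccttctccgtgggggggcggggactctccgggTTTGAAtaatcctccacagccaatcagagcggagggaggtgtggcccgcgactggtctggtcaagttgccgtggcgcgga
Tubb4b, chr2:25224653-25224952, minus strand: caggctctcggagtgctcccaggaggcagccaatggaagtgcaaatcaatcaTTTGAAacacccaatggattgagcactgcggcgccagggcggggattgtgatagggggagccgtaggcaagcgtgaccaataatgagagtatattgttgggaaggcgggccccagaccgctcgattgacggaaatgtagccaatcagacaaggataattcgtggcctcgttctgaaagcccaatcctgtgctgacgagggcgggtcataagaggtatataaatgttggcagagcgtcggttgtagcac
Tmpo, chr10:91170501-91170800, minus strand: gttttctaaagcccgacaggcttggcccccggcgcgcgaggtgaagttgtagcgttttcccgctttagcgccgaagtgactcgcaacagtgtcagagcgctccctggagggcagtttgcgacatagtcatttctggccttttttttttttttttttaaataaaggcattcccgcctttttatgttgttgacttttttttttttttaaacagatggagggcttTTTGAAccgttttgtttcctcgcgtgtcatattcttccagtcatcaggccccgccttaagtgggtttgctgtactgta
Hmgb2 holds 2 copies, the first at -218 from its start. Tubb4b, a tubulin of the spindle, has its copy at -198, and Tmpo, which ties chromatin to the nuclear lamina, has it at -28. Their levels in cycling against other leukocytes were 376 against 105 CPM for Tubb4b and 348 against 86.5 CPM for Tmpo. Of the 10 most abundant genes of the list Jpt1, Cks2 and Birc5 had a window without these letters.

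Within a kind, the genes lowest in cycling T cells against other T cells included several known from naive and recirculating T cells. The background over 1722 genes was 7.78% 2-fold higher, 1.63% 2-fold lower and 59.2% higher at any size. Ccr7, the receptor that guides naive T cells to lymph nodes, had 0 CPM (panobinostat, 14 cells), 67.9 (givinostat), 46.2 (ruxolitinib) and 65.8 CPM (vehicle) in cycling T cells. In other T cells it had 292 (panobinostat), 219 (givinostat), 213 (ruxolitinib) and 191 CPM (vehicle), all above the cycling values. Tcf7, a factor of naive and memory T cells, had 57.8 (panobinostat), 86.2 (givinostat), 139 (ruxolitinib) and 88.7 CPM (vehicle) in cycling T cells, and 207 to 261 CPM in others. Il7r, the receptor for the survival cytokine IL-7, had 178 CPM in cycling and 444 CPM in other T cells (log2 ratio -1.30). Lef1 and Satb1, further factors of early and naive T cells, were lower by the same measure (-1.50 and -1.59), and all 5 were lower in 4 of 4 libraries. Klk1, Clu and S100g, genes of tubule RNA, were also among the lowest, and Klk1 was at 68.1 CPM in cycling T cells, 431 CPM in other T cells and 56.7 CPM in tubule cells with high Slc34a1. A single other T cell held 56.5% of its Klk1 UMIs in givinostat, 91.4% in ruxolitinib and 53.0% in vehicle. The share of free tubule RNA in these values was not tested.

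The genes lowest in cycling Cd209a dendritic cells against others of the kind included Apoe, Cd7, Lyz2 and Plac8, beside a background of 1.3% of 1618 genes 2-fold lower, 5.75% 2-fold higher and 49% higher at any size. Lyz2 (lysozyme) had 836 (panobinostat), 995 (givinostat), 390 (ruxolitinib) and 255 CPM (vehicle) in cycling cells, below the 2029 to 3170 CPM of other cells of this kind. Apoe, a lipid carrier made by macrophages, had 10 UMIs in 56 cycling cells (11.8 CPM), against 406 CPM in others, where a single cell gave 28.1% to 63.6% of each library's UMIs. Plac8, abundant in classical monocytes, had 295 (panobinostat), 342 (givinostat), 55.8 (ruxolitinib) and 493 CPM (vehicle) in cycling cells, against 675 (panobinostat), 1175 (givinostat), 995 (ruxolitinib) and 614 CPM (vehicle) in others. Cd7 stood at 28.2 CPM in cycling and 176 CPM in other cells. The defining genes were near level: Cd209a had 803 and 889 CPM, Mgl2 675 and 653 CPM, and Cd74 18623 and 18910 CPM in cycling and other cells.

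The genes lowest in cycling macrophages against other macrophages included the chemokine genes Ccl7 and Ccl12, beside a background of 3.95% of 1645 genes 2-fold lower, 9% 2-fold higher and 56.7% higher at any size. Ccl7 had 1 UMI in 47 cycling macrophages, in panobinostat, and 0 in givinostat, ruxolitinib and vehicle. Other macrophages had 68.6 (panobinostat), 318 (givinostat), 277 (ruxolitinib) and 228 CPM (vehicle) of Ccl7. Ccl12 stood at 59.2 (panobinostat), 56.0 (givinostat), 66.8 (ruxolitinib) and 30.2 CPM (vehicle) in cycling macrophages, and at 273 to 490 CPM in others. Ms4a7, a membrane gene of mature macrophages, had 35.5 CPM in cycling and 333 CPM in other macrophages, and the IgG receptor gene Fcgr4 had 33.6 and 178 CPM. Every one of these was lower in cycling cells in 4 of 4 libraries, on few UMIs. Ccr2, the chemokine receptor of cells that arrived from blood, had 997 CPM in cycling and 887 CPM in other macrophages, and Adgre1 (F4/80) 160 and 265 CPM.

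Slfn5, an interferon-induced gene, was lower in cycling cells of all 3 myeloid kinds: 41.2 against 171 CPM in Cd209a dendritic cells, 53.7 against 182 CPM in Xcr1 dendritic cells and 43.4 against 222 CPM in macrophages. It was lower in 4 of 4 libraries in each kind. In Xcr1 dendritic cells 26 of 1545 genes were 2-fold lower (1.68%), 7.44% 2-fold higher and 52.3% higher at any size. Most of the lowest named there were tubule genes found in the vehicle library, such as S100g and Klk1, which were higher in cycling cells of 1 of 4 libraries each.

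**Figure D4:**
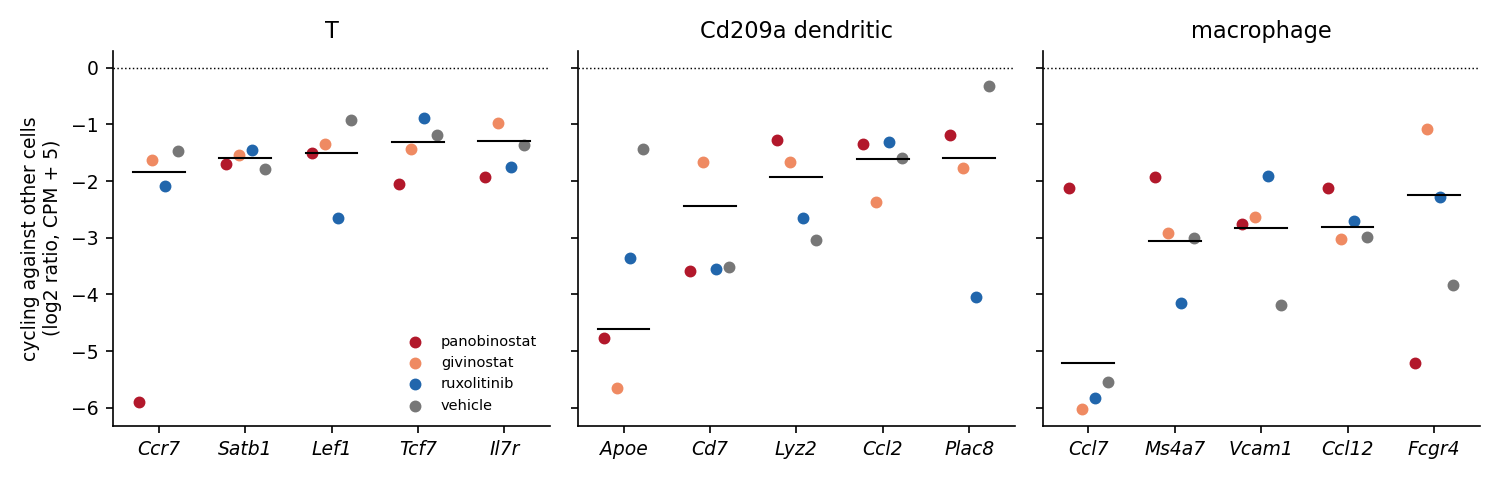
Log2 ratio of cycling against other cells of the same kind, with a pseudocount of 5 CPM, for genes low in cycling T cells, Cd209a dendritic cells and macrophages. Points are libraries, black bars the pooled ratio, and the dotted line marks 0. The levels behind the Ccr7 points are 0 to 67.9 CPM in cycling T cells and 191 to 292 CPM in others. Ccl7 was counted once among 47 cycling macrophages.

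Between libraries, drug against vehicle, the cycling cells as a whole differed 2-fold for few genes. Among genes with 50 CPM or more, 1.37% were 2-fold higher and 1.54% 2-fold lower in panobinostat, 1.45% and 1.39% in givinostat, and 1.4% and 0.992% in ruxolitinib. At any size 46.5% were higher in panobinostat, 47.7% in givinostat and 48.9% in ruxolitinib. The balance of higher and lower genes depended on the cells taken: without mixed cells 31.1% of the 2-fold genes were higher in panobinostat, 67.5% in givinostat and 50% in ruxolitinib, against 46.9%, 51.0% and 58.5% with them. The kinds are mixed in these sums. In panobinostat, where 14 of 62 cycling cells were T cells against 32 of 74 in vehicle, the lowest named genes included the T-cell genes Trac, Trbc1, Lat, Thy1 and Cd28. Trac, the constant part of the T-cell receptor alpha chain, had 102 CPM in panobinostat and 278 CPM in vehicle over all cycling cells, with a log2 ratio of -1.41, and -0.49 within cycling T cells. Mgp, among the lowest in each drug, had 517 UMIs in vehicle, 515 of them in 1 cell of the class set aside for tubule, endothelial, stromal or red-cell RNA.

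Several cytotoxic genes of cycling T cells, led by Ccl5 and the granzymes, were lower in vehicle than in each drug library. Of the 11 measured members of the list, 8 were higher and 3 lower than in vehicle in panobinostat, 9 and 2 in givinostat, and 11 and 0 in ruxolitinib. With a filter of 50 CPM in either library, 7 members were left in panobinostat, 9 in givinostat and 9 in ruxolitinib, all higher. Just 3 of those reached 50 CPM in vehicle, so the filter kept the others through the drug libraries and removed each of the lower ones, and these counts support nothing. Over all genes past that filter the share higher in these T cells at any size was 52.1%, 48.1% and 54%, 6.02%, 2.71% and 4.19% were 2-fold higher, and 7.62%, 2.57% and 3.52% 2-fold lower, in panobinostat, givinostat and ruxolitinib. Since the same 32 vehicle cells stand under all 3 ratios, the 3 are not separate results. Cd8 cells made up 8 of 14 cycling T cells (panobinostat), 23 of 59 (givinostat), 14 of 28 (ruxolitinib) and 17 of 32 (vehicle).

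Ccl5, a chemokine of effector T cells (chr11:83525778-83530518, minus strand, GRCm38), was counted in 10 of 14 cycling T cells of panobinostat, 39 of 59 of givinostat, 19 of 28 of ruxolitinib and 16 of 32 of vehicle. Its level was 3440 (panobinostat), 2813 (givinostat), 2886 (ruxolitinib) and 406 CPM (vehicle), ratios of 8.47 (7.00 to 10.3), 6.92 (5.84 to 8.26) and 7.10 (5.93 to 8.56) to vehicle. Other T cells had 4887 (panobinostat), 2917 (givinostat), 2846 (ruxolitinib) and 2605 CPM (vehicle), ratios of 1.88, 1.12 and 1.09. The vehicle's cycling T cells thus stood below every other group of T cells. Within Cd8 T cells that cycle, Ccl5 was at 5946 (panobinostat), 4920 (givinostat), 4269 (ruxolitinib) and 737 CPM (vehicle), against 5390 CPM or more in the other Cd8 T cells of every library. A single cell held 53.2% of the panobinostat UMIs of cycling T cells.

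Gzma, which encodes the killing protease granzyme A (chr13:113093825-113100981, minus strand), was in 5 of 14 cycling T cells of panobinostat, 13 of 59 of givinostat, 5 of 28 of ruxolitinib and 1 of 32 of vehicle. The levels were 571 (panobinostat), 434 (givinostat), 366 (ruxolitinib) and 2.86 CPM (vehicle, 1 UMI), against 206 (panobinostat), 174 (givinostat), 200 (ruxolitinib) and 93.0 CPM (vehicle) in other T cells. A single cell gave 70.9% of the panobinostat UMIs, 29.5% of those of givinostat and 46.3% of those of ruxolitinib. Tubule cells, which should lack the gene, had 2.88 CPM, so the vehicle value is at background level. The ratios to vehicle were 199.5 (34.8 to 7979) for panobinostat, 152 (27.0 to 6002) for givinostat and 128 (22.4 to 5105) for ruxolitinib, and rest on that single UMI. Cycling NK cells, absent from ruxolitinib and vehicle, add to the Gzma of all cycling cells in panobinostat and givinostat, at 139 UMIs in 3 cells and 823 UMIs in 8 cells.

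Gzmb and Gzmk, 2 further granzymes, differed the same way. Gzmb (chr14:56258838-56262260, minus strand) had 231 (panobinostat), 268 (givinostat), 655 (ruxolitinib) and 31.5 CPM (vehicle) in cycling T cells, with ratios of 7.35 (3.61 to 16.2), 8.50 (4.65 to 17.3) and 20.8 (11.3 to 42.5). In other T cells it had 81.6 (panobinostat), 172 (givinostat), 191 (ruxolitinib) and 43.3 CPM (vehicle), with ratios of 1.89, 3.96 and 4.40. Gzmk had 72.3 (panobinostat), 90.1 (givinostat), 116 (ruxolitinib) and 14.3 CPM (vehicle) in cycling T cells, on 5 UMIs in vehicle. Other cytotoxic genes differed less or not in this direction. Ifng had 238 (panobinostat), 185 (givinostat), 220 (ruxolitinib) and 160 CPM (vehicle), and the intervals of all 3 ratios included 1. Prf1, the pore-forming perforin, had 21.7 CPM in panobinostat (3 UMIs), 19.6 in givinostat (15 UMIs), 53.9 in ruxolitinib (14 UMIs) and 22.9 in vehicle (8 UMIs), so it was slightly lower than vehicle in panobinostat and givinostat.

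The values were also taken without the cells that had little other cycle RNA. In the cycling T cells above at least 1 of the 95th percentiles, Ccl5 had 3623 CPM in 13 cells of panobinostat, 2880 in 39 of givinostat, 3434 in 20 of ruxolitinib and 298 in 27 of vehicle. Gzmb in the same cells had 246 (panobinostat), 346 (givinostat), 795 (ruxolitinib) and 9.71 CPM (vehicle). Ifng there had 254 (panobinostat), 186 (givinostat), 234 (ruxolitinib) and 165 CPM (vehicle), and Prf1 15.4 (panobinostat), 19.7 (givinostat), 65.5 (ruxolitinib) and 22.7 CPM (vehicle). Whether the low values belong to the vehicle treatment, its animals or its library cannot be told apart.

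**Figure D5:**
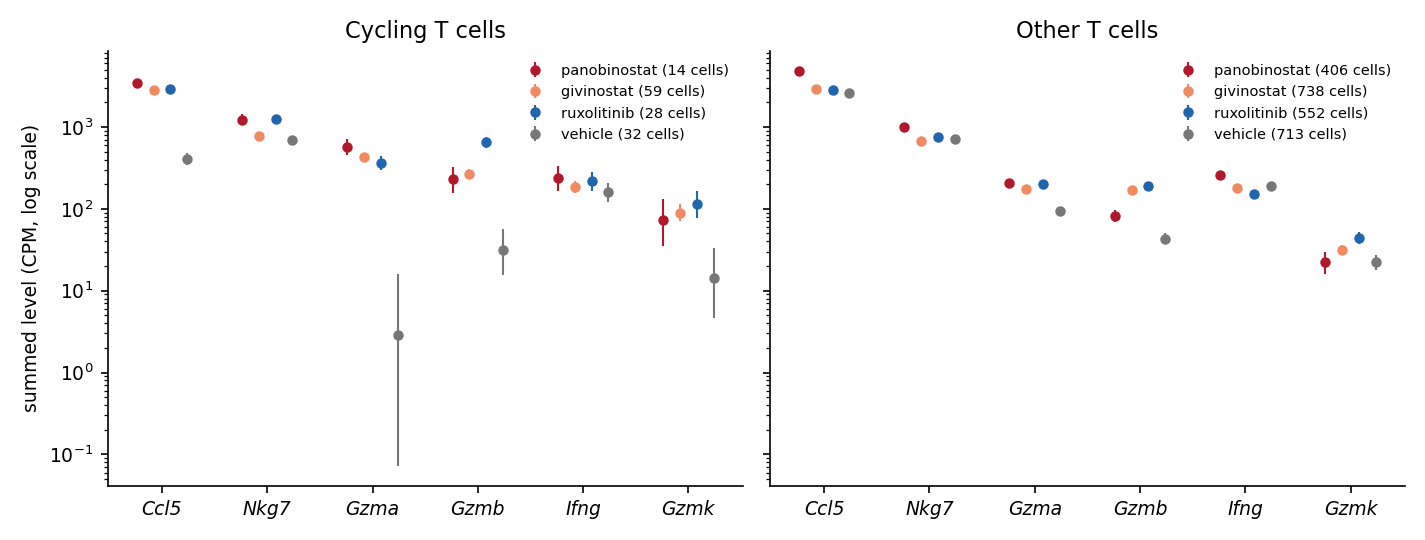
Level (CPM, log axis) of cytotoxic genes in cycling and other T cells of the panobinostat, givinostat, ruxolitinib and vehicle libraries, with exact 95% Poisson intervals. Ccl5 in cycling T cells lies at 2813 to 3440 CPM in the drug libraries and at 406 CPM in vehicle, while in other T cells it lies at 2605 CPM or more in every library.

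Il17a, the cytokine of type 17 T cells, was highest in the givinostat library among cycling T cells. It was in 0 of 14 cells (panobinostat), 12 of 59 (givinostat), 4 of 28 (ruxolitinib) and 7 of 32 (vehicle), at 618 CPM in givinostat, 277 in ruxolitinib and 120.2 in vehicle, and 1 cell held 23.7% of the givinostat UMIs. Other T cells had 118 (panobinostat), 455 (givinostat), 496 (ruxolitinib) and 493 CPM (vehicle), so no such order was seen there. The gamma-delta chain gene Trdc likewise had 389 CPM in cycling T cells of givinostat and 22.9 CPM in vehicle, in 12 of 59 and 2 of 32 cells.

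In ruxolitinib, 2 replication histones were among the lowest named genes. Hist1h2ap had 267 (panobinostat), 190 (givinostat), 79.8 (ruxolitinib) and 248 CPM (vehicle) in all cycling cells, a ratio of 0.322 (0.251 to 0.409) for ruxolitinib, and Hist1h2ae 201 (panobinostat), 241 (givinostat), 134 (ruxolitinib) and 291 CPM (vehicle), a ratio of 0.460 (0.377 to 0.560). Both were also lower within T cells (log2 -1.29 and -1.13). Of 9 replication histones with 50 CPM or more 1 was higher than in vehicle and 2 were 2-fold lower, beside 48.9% and 0.992% of all genes. Their median was -0.72, while S-phase genes had a median of -0.12. Histone genes of this cluster are near-identical copies, so counts of single members are uncertain. The chemokine Cxcl2 had 106 CPM in ruxolitinib and 483 CPM in vehicle, and the stress-induced factor Atf3 283 and 600.4 CPM. The JAK-STAT feedback list had 4 of 9 members higher in ruxolitinib, near the 48.9% of all genes, none past 2-fold, with a median of -0.04. Its member Socs3, an inhibitor of cytokine signalling, had 322 (panobinostat), 194 (givinostat), 169 (ruxolitinib) and 241 CPM (vehicle).

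For the histone deacetylase inhibitors, genes known to rise under this class of drug were not higher as a group in cycling cells. Of 7 such genes with 50 CPM or more 1 was higher than in vehicle in panobinostat (median -0.36) and 4 in givinostat (median 0.01), beside 46.5% and 47.7% of all genes. None was 2-fold higher, while Clu and Hexim1 were 2-fold lower in panobinostat and Clu in givinostat. Clu is also a tubule gene, and its direction in givinostat turned within T cells (log2 0.42). H1f0, a linker histone known to respond to these drugs, had 62.1 CPM in panobinostat, 82.7 in givinostat and 96.2 in vehicle. Cdkn1a (p21), the cycle inhibitor induced by them in many cultured cells, had 174 CPM in panobinostat, 188 in givinostat and 175 in vehicle. The G2 and M list, without Mki67 and Top2a, was lower than in vehicle in each drug library, ruxolitinib included. In givinostat 1 of 39 genes was higher and 6 were 2-fold lower (median -0.67), beside 47.7% and 1.39% of all genes. In panobinostat 2 of 39 were higher (median -0.26) and in ruxolitinib 5 of 40 (median -0.38), beside 46.5% and 48.9% of all genes, and 0 were 2-fold lower. The same vehicle library stands under all 3. This list moves with the genes that selected the cells, by a fixed number of UMIs. Cycling cells of givinostat were deeper, at a median of 13778 UMIs against 11660 in vehicle. These counts therefore describe the chosen cells, and the share of all genes is no like background. The part of depth and of the selection in them was not tested. Givinostat also held the largest share of cells under both 95th percentiles of other cycle RNA (28.3%). Within T cells the medians were 0.15 (panobinostat), -0.83 (givinostat) and -0.38 (ruxolitinib).

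MHC class II RNA took 0.0123% (panobinostat), 0.0662% (givinostat), 0.0166% (ruxolitinib) and 0.307% (vehicle) of the UMIs of cycling T cells. Single cells carried much of it: in givinostat 1 of 59 cells exceeded 1% and gave 73.6% of these UMIs, and in vehicle 2 of 32 cells did, the top cell giving 54.0%. Podocyte markers summed to 6.49 CPM and stromal markers to 21.9 CPM (88.2 in panobinostat). Haemoglobin and other red-cell genes summed to 6965 (panobinostat), 16637 (givinostat), 151 (ruxolitinib) and 27.3 CPM (vehicle). The 6 cells with 10% or more haemoglobin were kept out of the named kinds. The part of these genes in the results over all cycling cells was not tested.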

How the data were processed

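Whole-kidney cells were profiled with 10x 3' libraries on a NextSeq500, per the labels' protocols. Reads had been processed with Cell Ranger 3.0.1 on mm10, per the submitters' processing notes. The authors deposited a single matrix of UMI counts, not normalized, whose cell names end in a library name. The name CTRL stands in no label and was taken for vehicle, the only group without a drug. The members and gene lists were chosen with earlier results of these data known, and the UMI thresholds of the kinds were set after seeing the data.

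A kind needed a fixed number of marker UMIs, and the first match was taken in a set order: 20 of Jchain and Mzb1 (plasma), 3 of B-cell genes, 2 of Cd3d, Cd3e and Cd3g (T), 3 of NK genes, 10 of neutrophil genes, 3 of Siglech (plasmacytoid), 3 of Xcr1 and Clec9a, 10 of C1q genes, 3 of Cd209a-type genes and 3 of classical monocyte genes. Cells with 0.5% or more tubule RNA, 10% or more haemoglobin, 3 endothelial or stromal UMIs, or T with myeloid UMIs were set aside. T cells were split in order. Gamma-delta cells needed 3 UMIs of gamma-delta genes and more of these than of alpha-beta genes. Foxp3 cells needed 1 Foxp3 UMI. Cd8 cells needed 2 Cd8 UMIs and more than of Cd4, and Cd4 cells 1 Cd4 UMI. No doublet caller was run, and 37 members had over 3 times their library's median UMIs.

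Levels are UMIs summed per library, as CPM, with exact intervals (95%), and log2 ratios use a pseudocount of 5 CPM. The interval code was tested on simulated data. Named genes were the 10 highest and 10 lowest of genes outside the cycle lists with 100 CPM or more (cycling against other), and the 8 on each side with 200 CPM or more (drug against vehicle), whatever their size. Mitochondrial, ribosomal, predicted, immunoglobulin, haemoglobin, variable receptor and sex-linked genes and markers of non-leukocytes were left out of this naming. Of each pathway list the 2 to 4 most abundant members were to be named, and Birc5, Ube2c, Rrm2, Pcna, Cdkn2d, Prf1, Gzmk, H1f0, Cdkn1a, Hexim1 and Socs3 were in part added after their values were seen. Thinning, filters, pseudocount, TMM and DESeq2 scaling, clustering and the selection threshold were varied. Coordinates are from GENCODE vM21 (GRCm38) and promoter sequences from RefSeq (GRCm38.p6). Tools were Python 3.11.15, scanpy 1.11.5, edgeR 4.0.16 and DESeq2 1.42.0.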

Additional observations from a re-analysis of the deposited data

How the results depend on the processing

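With 1 library per group, leaving out a library leaves no comparison, and no result has a replicate check. No paired analysis was possible because each group has 1 library. Of 109 alternatives to the main results 79 stayed within the limits set for them and 30 moved. Thinning to 5272 UMIs and leaving out the top cell were chosen after seeing the data.

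The number of cycling leukocytes, 335, became 504 with 2 or more UMIs of Mki67 plus Top2a, 135 thinned to 2920 UMIs, 176 thinned to 5272 UMIs, and 5443 with 5 or more UMIs of the other G2 and M genes in place of the selecting pair. Thinned to 2920 and 5272 UMIs, the givinostat ratio to vehicle over all cells was 1.26 and 1.21. Over leukocytes the share was lower in givinostat at both depths. It was 40 of 1612 against 36 of 1326 in vehicle, and 63 of 1699 against 43 of 759. At these depths the dendritic share that cycled was 5.60% and 7.50%. The share of cycling cells with more G2 and M than S-phase UMIs was 80% and 82.4%. Thinned to 2920 UMIs, 2.68% of T cells and 5.43% of macrophages cycled and dendritic cells were 15.6% of the cycling cells. Macrophages were 18.8% of them at 5272 UMIs and 26.3% by clusters. With 5 or more UMIs of the selecting genes 3.11% of T cells cycled and dendritic cells were 28.9% of the cycling cells. With mixed cells left out, T cells were 45.4%.

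Genes 2-fold apart between cycling and other leukocytes numbered 141, and 578 or 68 with a filter of 10 or 200 CPM. For panobinostat against vehicle the 98 genes became 284 or 24 with a filter of 20 or 200 CPM, 510 within T cells and 154 with 5 or more selecting UMIs. For givinostat 96 became 272, 33 and 185 within T cells, and for ruxolitinib 82 became 244, 19 and 287. At 200 CPM 58.3% of these genes were higher in panobinostat, 48.5% in givinostat and 31.6% in ruxolitinib. TMM, DESeq2 size factors and the pseudocount kept these counts within 1.5 times.

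Among named genes the log2 ratio changed sign in these cases, and the cause was not tested. With 5 or more selecting UMIs Mgp was 0.059 (panobinostat), 0.036 (givinostat) and 1.39 (ruxolitinib). Within T cells of givinostat Mgp was 0.33, Clu 0.42, Wfdc2 1.41, Klk1 0.38, Jchain -0.32 and Ly6c2 -0.17, and of ruxolitinib Jchain 0.69, Car2 0.38 and Klk1 -0.30. With mixed cells left out, givinostat gave Clu 0.57, Wfdc2 0.46, Klk1 0.44, Fxyd2 0.22 and Ldhb 0.082, and ruxolitinib Car2 0.38.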
